A study of Talaromyces verruculosus with 6 samples.

Results

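Genes annotated with 11 or more exons and a coding length below 6000 bases numbered 112 of the 11326 genes (0.989%) measured in the filamentous fungus Talaromyces verruculosus. They were chosen from the annotated exon number and length alone, without any expression value. Mycelia of strain TS63-9 were cultured for 24 h in basic medium with pectin at 5 g/L (3 pectin cultures) or without pectin (3 control cultures). Both groups were started from plugs of plate-grown mycelium of the same strain, and no other agent distinguishes them. Pectin is the polysaccharide mixture of plant cell walls that many filamentous fungi break down with secreted enzymes, and the series' title names pectin-degrading enzymes as its subject. The deposited tables list locus tags without gene names, so each gene is given by its tag, no role is assigned to any of them, and the label of the tissue was not checked against marker genes.

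Most fungal genes hold few and short introns, which the spliceosome removes from the primary transcript as it joins the exons. A sequenced fragment that spans such a join is counted as a junction read, and a fragment from a retained intron or from an unannotated stretch of the gene falls outside the annotated exons. A gene with many exons therefore offers many joins at which the annotated model can be set against the reads.

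Each library held 10685347 to 11393959 exon reads in the pectin group and 10320372 to 11339657 in the control group. A count of 3 reads corresponded to 0.263 to 0.291 CPM (counts scaled to library size) in these libraries, a limit that covers counting error only. The counts of replicate libraries were compared by chi-square, which gave 33.9 to 135.4 per degree of freedom, so replicates differed beyond counting noise and each was kept as a sample of its own. Control 1 stood apart from the other controls in many of these genes: it had the highest scaled count of the controls in 61 of 102 of the many-exon genes tested (59.8%), against 42.9% of all genes tested.

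The 112 genes were mostly just above the exon threshold. Of them, 46 had 11 exons and 22 had 12, while 33 had 13 to 15 and 11 had 16 or more, up to a single gene with 22. Their median coding length was 2949 bases (243 to 5865), against 1284 bases over all genes. The median of the coding length per exon was 233 bases, against 380 bases in the other genes with several exons. Their introns were also longer, with a median of the mean intron length of 91.0 bases, against 61.5 bases. They lay on 67 of the 286 contigs that carry genes, 56 on each strand, with at most 8 on one contig, and no pair of them were neighbours. A further 9 genes with 11 or more exons had coding lengths of 6000 bases or more and were left out by the rule.

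Most of the many-exon genes were expressed under both conditions. The level is given as RPKM, reads scaled to coding length and to mapped reads. The log2 fold changes below come from counts scaled with the TMM factors of edgeR, not from RPKM. These factors were 0.903 to 0.945 in pectin and 1.02 to 1.18 in control libraries. A ratio of RPKM can therefore differ from the fold change, also in direction, as for ZTR_10878 and ZTR_09690. The mean over all 6 libraries was at least 1 RPKM in 89 genes and at least 10 RPKM in 54. The median gene of the 112 had 8.88 to 9.55 RPKM in pectin libraries and 7.995 to 9.35 RPKM in control libraries, while the median over all genes was 7.80 to 8.41 RPKM in pectin and 8.66 to 10.1 RPKM in control libraries. The 11 genes with 16 or more exons, of which 4 had too few reads for testing, had medians of 1.18 to 1.87 RPKM in pectin and 2.35 to 4.13 RPKM in control libraries. Across the 112 genes, Spearman's correlation of exon number with mean RPKM was -0.14 and that of coding length with mean RPKM was 0.04, as descriptions over genes that share the same libraries. A filter on low counts left 102 genes for testing, and the 10 left out had at most 45 exon reads in all 6 libraries together.

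**Figure D1:**
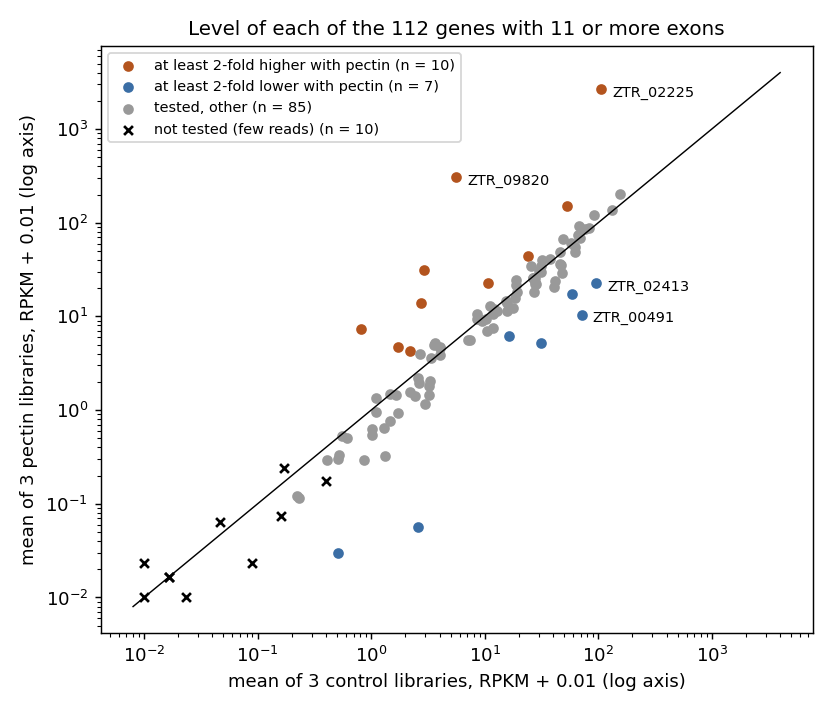
Mean level of each of the 112 genes in the 3 pectin libraries (vertical axis) and the 3 control libraries (horizontal axis), as RPKM plus 0.01 on log axes. Of the 102 genes tested, 82 had a fold change within 2-fold by the test (80.4%, against 83.6% of all genes tested). The genes called at least 2-fold lie away from the diagonal on both sides. Genes called under 2-fold are marked with the other tested genes.

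A pair of genes at the low end were picked out after their values were seen. ZTR_09699 had 0 exon reads in all 6 libraries. ZTR_00945 (LHCL01000004:915582-917075, minus strand) is annotated with 19 exons in 243 coding bases, or 12.8 bases an exon, and received 7 exon reads in all. Of its reads, 93.3% fell outside the annotated exons.

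With pectin, 11 of the 102 tested genes rose (10.8%) and 8 fell (7.84%), by the quasi-likelihood test of edgeR at an adjusted p under 0.05, with Benjamini-Hochberg adjustment across all 9177 genes tested. Over all genes tested 9.2% rose and 7.0% fell, so the shares among many-exon genes were near those of all genes. Changes of at least 2-fold were called in 10 genes that rose (9.8%, against 6.08% of all) and 7 that fell (6.86%, against 5.49% of all). The median log2 fold change was 0.01 over the tested members and -0.01 over all genes tested. In RNA of whole cultures, fewer cells of a type and less RNA per cell cannot be told apart. In counts scaled with the TMM factors, every pectin library lay above every control in 26 genes (25.5%, against 20.1% of all). In 19 (18.6%, against 17.8% of all) every pectin library lay below. At an unadjusted p under 0.05, 33 genes differed (32.4%, against 31.3% of all). The counts depended on single libraries. Without pectin 2, 6 genes rose and 3 fell (against 3.5% and 2.04% of all), the same numbers at least 2-fold. Without pectin 1, 4 fell (against 3.3% of all), and 5 fell without pectin 3 or control 2 (against 4.5% and 3.53% of all). The share of all genes that fell was likewise lower in these fits than with all libraries. Scaled to library size alone, 9 genes rose and 10 fell, against 5.94% and 10.3% of all.

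At the edge of the rule, of the genes with exactly 11 exons, 44 were tested and 6 were called higher (13.6%) and 4 lower (9.09%) with pectin, against 9.2% and 7.0% of all genes. Of the genes with exactly 10 exons, just outside the rule, 72 were tested and 8 were called higher (11.1%) and 5 lower (6.94%). Their median levels were 8.88 to 9.78 RPKM in pectin and 8.85 to 12.9 RPKM in control libraries with 11 exons, and 6.41 to 7.495 RPKM in pectin and 5.69 to 7.81 RPKM in control libraries with 10 exons. Among genes below 6000 coding bases, 6.78% of those with 1 exon rose, as did 9.00% with 2 to 4, 12.4% with 5 to 7 and 11.99% with 8 to 10 exons. The corresponding shares that fell were 7.40%, 6.94%, 6.61% and 6.54%. The median size of the log2 change, without its sign, was 0.32 in members with 11 or 12 exons, 0.56 with 13 to 15 and 0.87 with 16 or more, against 0.38 over all genes tested. The members with 16 or more exons that were tested numbered 7. The share that rose did not follow this order, while the share that fell was highest in the class of 7 genes. With 11 or 12 exons, 14.1% of 64 rose and 6.25% fell. With 13 to 15, 3.23% of 31 rose and 6.45% fell. With 16 or more, 1 of 7 rose (14.3%) and 2 fell (28.6%). The median exon reads per gene over the 6 libraries were 3284.5, 2210 and 1057 in the 3 classes in that order. Whether the fewer reads bear on the size of the change was not tested.

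ZTR_02225 was the most abundant many-exon gene under pectin. It lies at LHCL01000001:123132-124703 on the plus strand and has 11 exons in 1014 coding bases, which is 92.2 bases an exon. Its level was 3338, 2560.1 and 2069 RPKM in pectin cultures 1 to 3, and 120.5, 100.5 and 99.1 RPKM in control cultures 1 to 3. The groups were far apart, with the lowest pectin culture well above the highest control. The mean was 2655 ± 639.8 RPKM with pectin and 106.7 ± 11.98 RPKM without (SD, n = 3 each), and the log2 fold change was 4.79 (SE 0.30, edgeR adjusted p = 0.000197). This one gene took 28.7%, 24.4% and 20.7% of all exon reads of the 112 genes in pectin libraries, and 1.45%, 1.63% and 1.53% in control libraries.

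ZTR_09820 showed the largest fold change of the 4 changed genes named here. It has 12 exons in 3519 coding bases at LHCL01000118:41754-46280 on the plus strand. Pectin cultures had 277.5, 289.1 and 351.3 RPKM, and control cultures had 2.83, 2.74 and 11.2 RPKM. All pectin cultures were high, and control 3 was above the other controls without reaching any pectin culture. The mean was 306 ± 39.7 RPKM with pectin and 5.597 ± 4.87 RPKM in controls (SD, n = 3 each), with a log2 fold change of 5.89 (SE 0.67, edgeR adjusted p = 0.00185) and of 6.93 without control 3. Of its reads, 43.5 ± 0.74% in pectin and 46.7 ± 3.29% in control libraries fell outside the annotated exons (SD, n = 3 each). Per kilobase of non-coding gene length (gene length minus coding length), its reads outside exons were 268% of those in exons over the 6 libraries. That was the highest value among the members with at least 1000 exon reads, though not all these reads need come from the non-coding length.

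ZTR_00491 fell with pectin in every culture. It spans LHCL01000008:312298-317536 on the plus strand, with 11 exons, 3165 coding bases and the longest mean intron length of the 112 genes, 207 bases. The pectin cultures had 10.2, 9.48 and 11.3 RPKM, and the control cultures 96.5, 64.6 and 54.9 RPKM. The groups did not overlap and the pectin values lay close together. The mean was 10.3 ± 0.94 RPKM with pectin and 72.0 ± 21.8 RPKM in controls (SD, n = 3 each), which gave a log2 fold change of -2.64 (SE 0.20, edgeR adjusted p = 0.000382).

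ZTR_02413 also fell, with a wide spread among controls. This 18-exon gene of 3189 coding bases lies at LHCL01000001:660589-665217 on the minus strand. Its level was 27.6, 24.1 and 15.8 RPKM in pectin cultures and 181, 60.2 and 48.3 RPKM in control cultures. Control 1 was far above the other controls, and all pectin cultures were below all controls. Its log2 fold change was -1.89 (SE 0.47, edgeR adjusted p = 0.0338), and -1.21 without control 1 (adjusted p = 0.0194). Without control 2, pectin 1, pectin 2 or pectin 3 the call was lost, with adjusted p of 0.056, 0.0724, 0.112 and 0.0967 in that order.

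**Figure D2:**
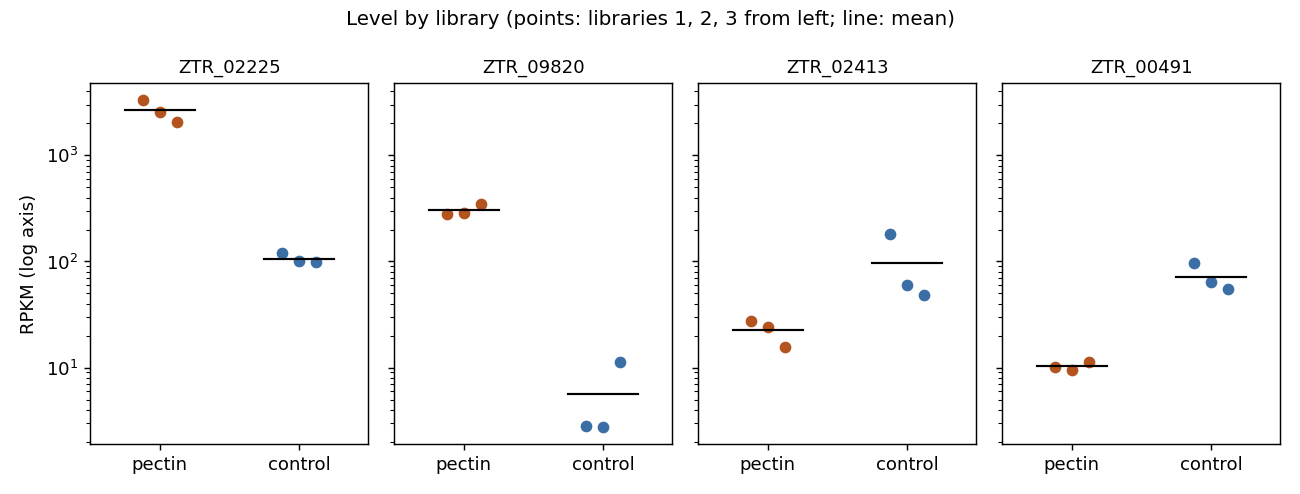
Level in RPKM (log axis) of the 4 changed genes named in the text, with pectin libraries left of control libraries, points for libraries 1 to 3 and a line at the mean. The pectin points of ZTR_02225 and ZTR_09820 lie above all control points, and those of ZTR_00491 and ZTR_02413 lie below them.

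The other genes that changed at least 2-fold covered a wide range of levels. The 8 others that rose averaged 4.28 to 150 RPKM with pectin (median 18.4) and 0.80 to 53.3 RPKM in controls (median 2.84), with log2 fold changes of 1.06 to 3.53. The 5 others that fell averaged 0.02 to 17.5 RPKM with pectin (median 5.25) and 0.50 to 58.4 RPKM in controls (median 16.4), with log2 fold changes of -5.49 to -1.26. In none of these 13 genes did the pectin and control libraries overlap, which adds no support, since they were picked on the same counts. Of all genes tested, 20.1% had every pectin library above every control in scaled counts and 17.8% had every one below. The single gene with 22 exons was among those that rose, with 28.6, 21.3 and 18.9 RPKM in pectin and 9.31, 11.6 and 11.2 RPKM in control cultures. Beyond these, 1 gene rose by 0.58 and 1 fell by 0.995 on the log2 scale, both under 2-fold.

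Several of the most complex or most abundant genes passed no expression test. ZTR_10878 (LHCL01000071:117447-122471, minus strand), with 21 exons in 3909 coding bases, had 23.3, 23.4 and 30.2 RPKM in pectin and 25.1, 25.8 and 29.0 RPKM in control cultures. These ranges overlapped, and the log2 fold change was 0.08 (SE 0.17, edgeR adjusted p = 0.808). Its junction share, the part of its exon reads that cross a join, was 86.1% with pectin and 85.4% in controls on average. ZTR_10432 (LHCL01000166:19591-23555, plus strand, 14 exons, 2943 coding bases) had the highest mean level of the genes not called. It reached 223, 216 and 174 RPKM in pectin and 162, 129.7 and 172 RPKM in control cultures. The pectin cultures lay slightly above the controls without passing the test, with a log2 fold change of 0.56 (SE 0.21, edgeR adjusted p = 0.121).

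Junction reads made up a larger part of the reads in many-exon genes than in other genes with several exons. In the 76 genes with at least 1000 exon reads over the 6 libraries, a median of 61.7% of exon reads crossed a join (2.78% to 99.8%), against 32.4% in 4858 other genes with several exons. The rule asks for many exons in a limited coding length, so this difference goes with the choice of genes. In summed reads of genes below 6000 coding bases, the share was also higher with more exons outside the rule. It averaged 35.5% with pectin and 34.3% in controls with 2 to 4 exons, and 61.2% and 59.5% with 8 to 10. The share exceeded 90% in 10 of the 76 genes and was under 10% in 2. Across the 76, Spearman's correlation of the coding length per exon with the junction share was -0.87, a description over genes that share libraries. The junction reads per join were also expressed as the number of coding bases that would collect as many exon reads. This value had a median of 147 bases (11.5 to 286), against 196 bases in the other genes, and was under 50 bases in 2 genes. It cannot exceed the coding length divided by the number of joins, a limit that is lower where exons are short. The 2 medians therefore do not compare splicing apart from exon number and length.

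**Figure D3:**
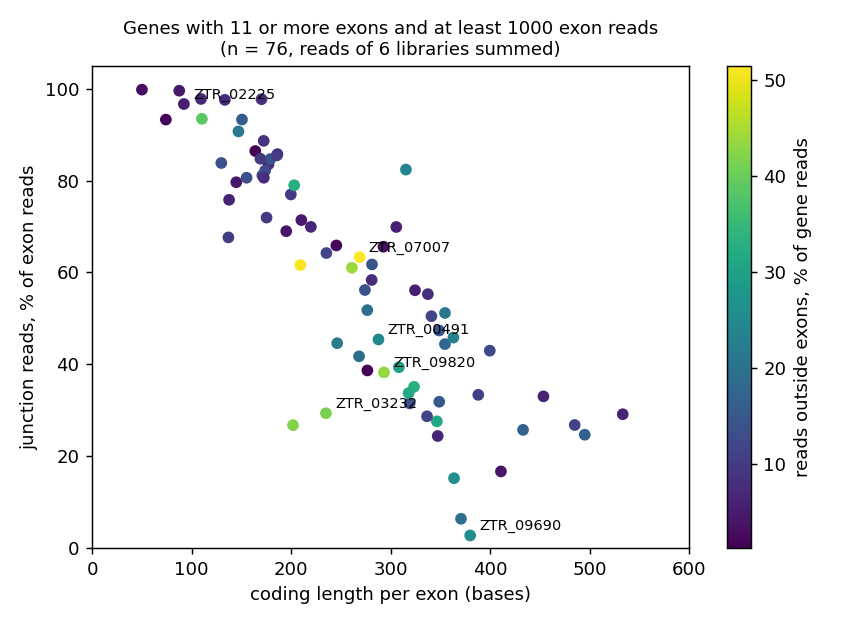
Junction reads as a percentage of exon reads (vertical axis) against coding length per exon in bases (horizontal axis) for the 76 genes with at least 1000 exon reads, reads of 6 libraries summed, coloured by the share of reads outside exons. The share falls as exons get longer, with Spearman's rho of -0.87, and ZTR_09690 lies lowest at 2.78%.

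ZTR_09690 was the lowest of them. It has 13 annotated exons in 4938 coding bases at LHCL01000110:15945-22014 on the minus strand, yet only 2.78% of its exon reads crossed a join. The value was 1.77% with pectin and 3.55% in controls on average, which amounts over all libraries to 11.5 coding bases per join. The gene was well covered, with 10.3, 8.36 and 9.63 RPKM in pectin and 12.3, 9.16 and 9.60 RPKM in control cultures. These groups overlapped, with a log2 fold change of 0.02 (SE 0.16, edgeR adjusted p = 0.943).

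The reads of ZTR_00491 differed in kind as well as in number. Joins were crossed by 11.8%, 14.7% and 11.7% of its exon reads in pectin cultures, and by 50.8%, 50.5% and 48.1% in control cultures. Each pectin culture was far below every control, at 12.7 ± 1.75% with pectin and 49.8 ± 1.48% in controls (SD, n = 3 each). The counts behind it were 65, 73 and 68 junction reads among 552, 495 and 583 exon reads in pectin libraries, and 2505, 1865 and 1462 among 4932, 3691 and 3039 in control libraries. The ratio of junction reads to other exon reads was tested with edgeR as the interaction of read type and group, with a minimum of 60 reads for each of the read types over the 6 libraries. It fell by 2.90 on the log2 scale (SE 0.13, adjusted p = 5.43e-20), which was rank 1 by p of the 5762 genes tested.

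The fall in ZTR_00491 was therefore unequal between read types, here scaled to the exon reads of the library (CPM). Its junction reads averaged 6.24 ± 0.57 CPM with pectin and 180 ± 57.8 CPM in controls, a ratio of 0.0347 (SD, n = 3 each). Its exon reads that cross no join averaged 43.0 ± 3.65 CPM with pectin and 180 ± 49.8 CPM in controls, a ratio of 0.239. Its reads outside exons averaged 9.46 ± 0.25 CPM with pectin and 124 ± 29.9 CPM in controls, a ratio of 0.0763. Of all its reads, 16.2 ± 1.23% with pectin and 25.8 ± 1.06% in controls lay outside exons, and the ratio of these to exon reads fell by 0.58 on the log2 scale (SE 0.13, edgeR adjusted p = 0.0303). That call on reads outside exons was lost without control 1, control 3, pectin 1, pectin 2 or pectin 3, with adjusted p of 0.0703, 0.0934, 0.103, 0.119 and 0.107 in that order, and kept without control 2 (adjusted p = 0.0250). The counts are sums over the joins of a gene, so single joins are not analysed here.

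**Figure D4:**
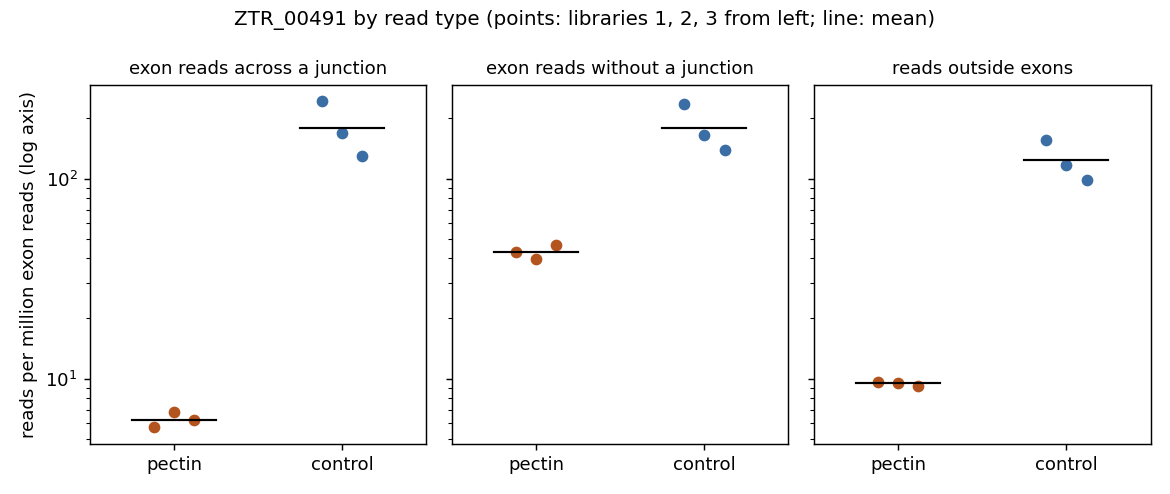
Reads of ZTR_00491 as CPM, scaled to the exon reads of the library (log axis), that cross an exon join, lie in exons without crossing one, or lie outside exons, with pectin libraries left of control libraries, points for libraries 1 to 3 and a line at the mean. All types are lower with pectin, by a ratio of 0.0347 for junction reads, 0.239 for other exon reads and 0.0763 for reads outside exons.

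Over the 84 many-exon genes with enough reads for this ratio test, 5 fell (5.95%, against 1.87% of 5762 genes) and 1 rose (1.19%, against 0.538%). The other 4 that fell changed by -0.57 to -0.41 on the log2 scale. With an unadjusted p under 0.05, 26 differed in either direction (31.0%, against 17.6% of all) and 3 of them rose (3.57%, against 1.74% of all). The median log2 change was -0.17 in the tested members and -0.13 over all genes tested, and with both read types scaled to all exon reads the median over all genes was -0.01. Under that scaling 2 members fell, against 0.295% of all genes. The count that fell was 2 without control 2, pectin 1 or pectin 2 (of all genes, 0.463%, 0.442% and 1.3% fell in that order). Without control 3, 10 fell and 2 rose (of all genes, 3.22% fell and 0.80% rose).

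The gene that rose in this ratio was ZTR_03232 (LHCL01000018:338902-343768, plus strand, 13 exons, 3054 coding bases). Joins were crossed by 41.7%, 33.5% and 40.2% of its exon reads in pectin cultures and by 16.7%, 22.1% and 22.2% in control cultures. The groups did not overlap, which adds no support, since the gene was picked by this ratio test. The ratio rose by 1.22 on the log2 scale (SE 0.25, edgeR adjusted p = 0.00246). It rests on few reads, with 83, 55 and 74 junction reads in pectin and 42, 32 and 28 in control libraries. Its level was 3.79, 3.25 and 3.71 RPKM in pectin and 5.09, 2.63 and 2.36 RPKM in control cultures, with a log2 fold change of 0.27 (SE 0.27, edgeR adjusted p = 0.546).

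When the reads of all 112 genes were summed, the result turned on single genes. Joins were crossed by 65.6%, 64.0% and 61.1% of the summed exon reads in pectin libraries and by 57.1%, 57.8% and 57.6% in control libraries. Every pectin library was above every control, with 63.5 ± 2.28% and 57.5 ± 0.34% (SD, n = 3 each, exact permutation p = 0.1, two-sided, the smallest that 3 against 3 libraries allow, and adjusted p = 0.129 over 18 such measures). In the other genes with several exons the share was 40.2 ± 1.12% with pectin and 38.6 ± 0.59% in controls. Without ZTR_02225, of whose exon reads 96.6 ± 0.21% with pectin and 97.4 ± 0.73% in controls crossed a join, the order turned round, with 52.8 ± 0.92% with pectin and 56.9 ± 0.31% in controls. Without ZTR_09820 as well, it was 55.0 ± 0.76% with pectin and 56.9 ± 0.33% in controls. The median of the shares of 80 single members was 60.9% with pectin and 61.2% in controls, a difference of -0.26 percentage points (exact permutation p = 0.9).

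**Figure D5:**
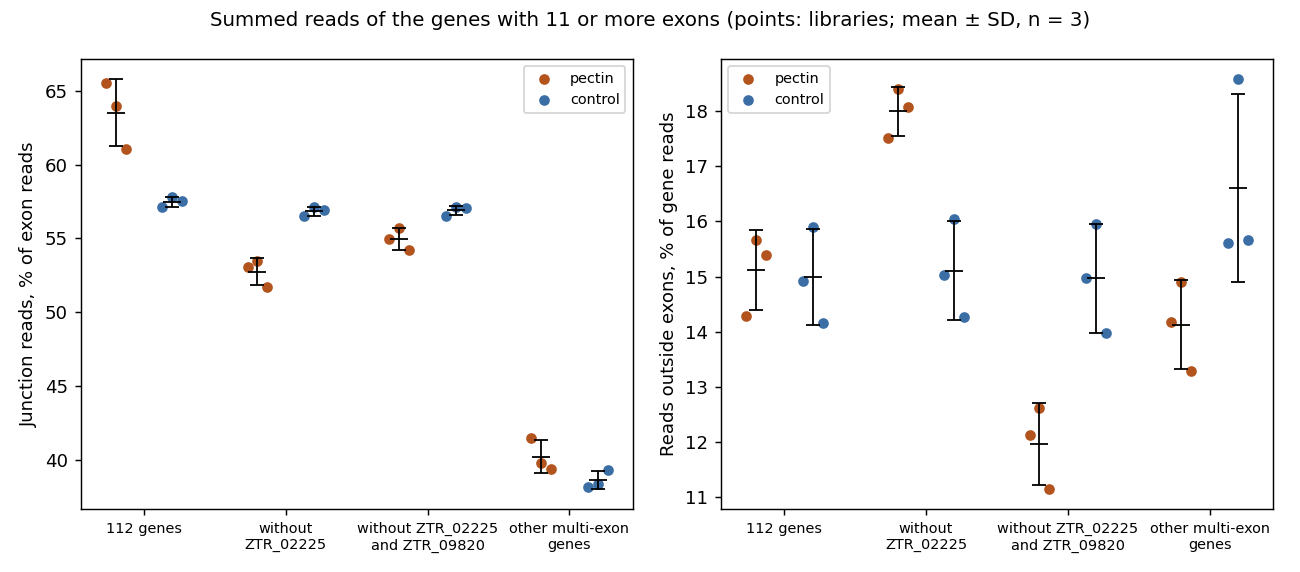
Share of exon reads that cross a join (left panel) and of all reads that lie outside exons (right panel) in the summed reads of the 112 genes, of the same genes without ZTR_02225, without ZTR_02225 and ZTR_09820, and of the other genes with several exons, as percentages, with pectin left of control in each pair (points for libraries, mean ± SD, n = 3). The junction share of the 112 genes is 63.5% with pectin and 57.5% in controls, and becomes 52.8% with pectin and 56.9% in controls once ZTR_02225 is left out, while the share outside exons becomes 18.0% with pectin and 15.1% in controls.

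The share of exon reads taken by the 112 genes followed the same genes. It was 1.78%, 1.64% and 1.49% in pectin and 1.32%, 1.01% and 1.01% in control libraries (exact permutation p = 0.1). Without ZTR_02225 it averaged 1.23 ± 0.045% with pectin and 1.10 ± 0.18% in controls (exact permutation p = 0.4, SD, n = 3 each). Without ZTR_02225 and ZTR_09820 it averaged 1.07 ± 0.06% with pectin and 1.10 ± 0.18% in controls (exact permutation p = 1.0).

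Reads outside annotated exons were common in a few of the genes. Their share of all reads had a median of 11.9% in the 76 well-covered genes (1.17% to 51.4%), against 12.5% in the other genes with several exons, and exceeded 40% in 6 genes. Per kilobase of gene length beyond the coding length, reads were denser outside than inside the exons in 14 of the 76 genes (18.4%). This held for 64.3% of the other genes with several exons. Genes with 1 exon also had 20.4% of reads outside exons with pectin and 23.6% in controls on average. Such reads need not come from the non-coding length, so these densities do not compare retained introns between the groups of genes. ZTR_07007 (LHCL01000040:170981-176662, plus strand, 15 exons, 4032 coding bases) had the highest share over the 6 libraries pooled, 51.4%, though not in the pectin libraries alone. It had 48.3 ± 3.53% in pectin and 53.1 ± 1.22% in control libraries (SD, n = 3 each). It was expressed at 2.08, 2.31 and 1.74 RPKM in pectin and 5.42, 2.36 and 2.03 RPKM in control cultures, with a log2 fold change of -0.49 (SE 0.34, edgeR adjusted p = 0.379).

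For the ratio of reads outside exons to exon reads, 2 of 89 many-exon genes fell (2.25%, against 0.955% of 6385 genes) and 0 rose (against 0.313%), by edgeR. At an unadjusted p under 0.05, 15 differed in either direction (16.9%, against 12.2% of all) and 4 of them rose (4.49%, against 5.14% of all). The genes that fell at an adjusted p under 0.05 were ZTR_00491 and ZTR_10854 (LHCL01000071:107430-111600, plus strand, 15 exons, 2685 coding bases). In ZTR_10854, 11.9%, 9.61% and 11.4% of reads lay outside exons in pectin and 15.2%, 22.3% and 18.4% in control libraries. The groups did not overlap, which likewise adds no support, since the gene was picked by this ratio test. The ratio fell by 0.60 on the log2 scale (SE 0.13, edgeR adjusted p = 0.0251). Its level was 72.9, 68.7 and 57.1 RPKM in pectin and 64.9, 38.0 and 43.3 RPKM in control cultures. These overlapped as RPKM, though every pectin library was above every control in scaled counts. The log2 fold change was 0.61 (SE 0.20, edgeR adjusted p = 0.0831), and 0.77 without control 1 (adjusted p = 0.0310). The call on reads outside exons was lost without control 2, control 3 or pectin 2, with adjusted p of 0.200, 0.0916 and 0.188 in that order. The number of many-exon genes that fell in this ratio was 0 without control 3 or pectin 2 and 1 without any other single library. Over all genes, 0.356% to 0.978% fell when 1 library was left out. Summed over the 112 genes, the share outside exons was 14.3%, 15.7% and 15.4% in pectin and 14.9%, 15.9% and 14.2% in control libraries (exact permutation p = 0.9). Without ZTR_02225 it was 18.0 ± 0.44% with pectin and 15.1 ± 0.89% in controls (SD, n = 3 each). Without ZTR_02225 and ZTR_09820 it was 11.97 ± 0.75% with pectin and 14.97 ± 0.98% in controls (SD, n = 3 each, exact permutation p = 0.1), and in the other genes with several exons it was 14.1 ± 0.81% with pectin and 16.6 ± 1.70% in controls.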

How the data were processed

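Poly-T purified mRNA was sequenced with paired ends, per the labels' protocols, and the series' design text calls the cultures biological replicates. Per the file headers, the authors deposited read counts per gene (exon, exon-exon junction and intron reads) and RPKM. Exon lengths in the tables are multiples of 3 in 100% of genes, so they are coding lengths. Since genes with 1 exon also have intron reads in the tables, these are called reads outside exons. No aligner, build, counting tool or use of strand is given in the sources used here, so antisense transcription cannot be separated. Expression was tested on total exon counts as deposited, with edgeR 4.0.16 in R 4.3.3 (quasi-likelihood, robust, TMM factors, filterByExpr), adjusted by Benjamini-Hochberg over all genes tested. The ratio tests used genes with at least 2 exons and 60 reads of each type, the library as a block and each read type scaled to its own library total. Shares were compared by exact permutation over libraries. Alternatives used DESeq2 1.42.0, limma 3.58.1 and other scalings, filters and libraries. The tests were checked on simulated data. Genes were named by a rule: the changed genes (at least 2-fold) with the highest CPM, 2 in each direction, the extremes of exon number, level, junction share and outside share among genes not called, and the top gene of each ratio test by p. The genes, lists and rules were chosen with earlier results of these data known. The labels give no batch. No sequence is used here.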

Additional observations from a re-analysis of the deposited data

How the results depend on the processing

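Over 16 alternatives, 6 genes that rose and 3 that fell were called in every fit, and 0 were called in the opposite direction. DESeq2 gave 14 genes that fell, 11 of them at least 2-fold, against 10.5% and 7.27% of all genes. Scaling to library size alone moved the median log2 change of the members to -0.22 and that of all genes to -0.21. With both read types scaled alike, 2 genes fell in junction ratio and 4 in the ratio outside exons (0.295% and 2.93% of all). Leaving out 1 library at a time gave 6 to 12 genes that rose and 3 to 9 that fell, of which 6 to 11 and 3 to 9 were at least 2-fold. Over all genes, 3.5% to 10.1% rose and 2.04% to 7.65% fell in these fits. The median log2 change of the members was -0.05 to 0.08. In junction ratio, 1 to 2 genes were higher and 2 to 10 lower (0.46% to 0.8% and 0.442% to 4.44% of all). In the ratio outside exons, 0 to 1 were higher and 0 to 1 lower (0.146% to 0.419% and 0.356% to 0.978% of all). The summed junction share then differed by 5.03 to 7.28 points, the share outside exons by -0.29 to 0.58 (-0.15 without pectin 2, -0.01 without pectin 3) and the share of all exon reads by 0.45 to 0.62. The summed junction share differed by -0.26 as a median over genes, by -4.10 without ZTR_02225 and by -1.94 without ZTR_09820 as well. The last 2 settings were chosen after the data were seen. The share outside exons differed by -2.49 as a median and by -2.999 without both genes, and the members' share of reads by -0.028 without both. The log2 change of ZTR_10878, 0.08, became -0.0059 with a 10 CPM filter, -0.12 by library size, -0.0032 with upper-quartile factors, and -0.040 to 0.16 with libraries left out. That of ZTR_09690, 0.02, became -0.075, -0.20 and -0.064 in these settings and -0.090 to 0.10 with libraries left out. The cause of these shifts was not tested.

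Replicate numbers are shared between the groups, but the labels do not say that they mark pairs. A fit with the replicate as a block was therefore kept as an alternative. Correlations of the deviations of pectin and control libraries 1, 2 and 3 were 0.50, 0.09 and 0.45. Each pectin library correlated best with the control of its own number, while control 2 correlated best with pectin 3 (0.37). Whether the numbers mark shared batches is not known. With the replicate block, 15 genes rose and 14 fell, while over all genes 12.7% rose and 11.6% fell, and ZTR_10854 was called higher (adjusted p = 0.0344, against 0.0831 without the block). In junction ratio 2 rose and 14 fell (0.746% and 5.88% of all), and in the ratio outside exons 1 rose and 4 fell (0.783% and 2.27% of all).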
